A study of Mus musculus with 3 samples.

Results

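Fibrocartilage-like cells of the adult mouse patellar tendon were picked out of single-cell RNA counts by the genes they carried. A barcode (the droplet tag that stands for a cell) was kept when it held at least 500 genes, at least 1000 UMIs (unique molecular identifiers, each marking 1 captured RNA molecule) and at most 10% mitochondrial UMIs. It was taken as a member when at least 3 of the 5 genes Npy, Slurp1, Ibsp, Cytl1 and Spp1 had a UMI and Clu had at least 3 UMIs. This rule, called the gate here, took 100 of 609 barcodes in 20-week replicate 1 and 34 of 1015 in 20-week replicate 2, or 134 of the 1624 barcodes at 20 weeks and of the 6588 in all. The shares were 16.4% (95% exact binomial interval 13.6 to 19.6%) and 3.35% (2.33 to 4.65%), intervals that cover counting error only.

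The tendons came from mice labelled WT, and cells of the blood and vessel-lining lineages had been sorted away after collagenase digestion. There were 2 libraries from mice aged 20 weeks and 1 library from mice aged 2 weeks, and neither the number of animals per library nor the strain was given in the labels. Per the labels, the tendon was taken between the tip of the patella and the tibial tuberosity.

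Fibrocartilage forms where tendon meets bone or is pressed against it, and its rounded cells lie in a matrix that mixes tendon collagen with aggrecan and other cartilage proteins. The zone is built under hedgehog signalling and the transcription factors SOX9 and SCX, and its deep part mineralizes. Osteopontin (Spp1) and bone sialoprotein (Ibsp) are acidic phosphoproteins of the SIBLING family, which bind mineral and integrins. Clusterin (Clu) is a secreted chaperone, Cytl1 encodes a small secreted protein made by chondrocytes, Slurp1 a secreted Ly6-type protein that acts on acetylcholine receptors, and Npy the peptide neuropeptide Y, best known from nerves. Chondroadherin (Chad) and cartilage oligomeric matrix protein (Comp) are matrix proteins of cartilage and tendon.

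The gated barcodes held 354378 UMIs in replicate 1 and 202889 in replicate 2, and the other barcodes of the same libraries held 1449085 and 5378449. Median UMIs per barcode were 3261.5 and 6118 in the gate, against 2725 and 5084 in the other barcodes. The median mitochondrial share was 0.945% and 1.37% in the gate, against 1.73% and 1.72%. No barcode was shared between the 20-week libraries, and 2 and 3 were shared between the 2-week library and replicates 1 and 2. A doublet score called 6 barcodes in replicate 1, of which 2 were in the gate, and none in replicate 2. Levels are given below as CPM, the UMIs of a gene per 1e+06 UMIs of the summed barcodes. The assay counts the 3′ ends of transcripts, so a level is not divided by transcript length, and levels are compared between classes of barcodes within a gene.

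Ibsp and Spp1 are neighbours on chromosome 5 of the mm10 build (GENCODE vM21), with Ibsp at 104299171 to 104311469 and Spp1 at 104435118 to 104441050, both on the plus strand. The same stretch holds the other SIBLING genes Dspp (104170712 to 104180127), Dmp1 (104202613 to 104214102) and Mepe (104325329 to 104338611), matrix proteins of dentin and bone. The gated barcodes held 597 and 621 UMIs of Ibsp and 4866 and 1630 of Spp1, and 0 UMIs of Dspp, Dmp1 and Mepe in both libraries, which allows up to 3% and 8.82% of gated barcodes with a UMI. The gate asks for no single one of its 5 genes, and Ibsp had a UMI in 56.0% and 73.5% of its barcodes and Spp1 in all. The 250 bases before the start of both detected neighbours are shown because the gate rests on them (RefSeq, GRCm38.p6, plus strand, Ibsp chr5:104299037-104299286 and Spp1 chr5:104434861-104435110, the first of its RefSeq windows). The RefSeq starts they lead up to are 104299287 for Ibsp, which lies inside the GENCODE gene given above, and 104435111 for Spp1. Capitals mark the letters ACAATG and ACAAAG, the kind of site SOX factors bind, and TGTGGT, the kind RUNX factors bind, searched on both strands.
Ibsp: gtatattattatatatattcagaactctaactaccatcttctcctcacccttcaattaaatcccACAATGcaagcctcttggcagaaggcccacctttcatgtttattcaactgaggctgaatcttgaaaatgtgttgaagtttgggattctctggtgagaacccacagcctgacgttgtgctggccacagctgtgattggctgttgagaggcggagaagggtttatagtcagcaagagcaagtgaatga
Spp1: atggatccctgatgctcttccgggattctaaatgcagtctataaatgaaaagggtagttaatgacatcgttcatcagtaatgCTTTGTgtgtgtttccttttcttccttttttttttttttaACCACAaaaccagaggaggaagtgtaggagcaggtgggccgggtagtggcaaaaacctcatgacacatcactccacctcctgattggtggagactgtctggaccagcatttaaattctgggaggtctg
The Ibsp window held 1 ACAATG, 186 bases before the RefSeq start. The Spp1 window held ACAAAG on the reverse strand, 168 bases before the RefSeq start, and TGTGGT on the reverse strand, 128 bases before it, and no match overlapped another. Of 32851 RefSeq windows of this length, 10.69% held ACAATG, 16.46% held ACAAAG and 14.05% held TGTGGT, so such matches are common and say nothing here of a factor's binding.

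The values that chose the members are a description and carry no test. Clu stood at 23895 and 27010 CPM in gated barcodes of replicates 1 and 2, against 1883 and 487 in the other barcodes. Spp1 stood at 13731 and 8034 CPM, against 620 and 186. Both genes were higher in the gate than in the other barcodes of either library, where they were also present. The less abundant gate genes differed more between the libraries. Npy had 1383 and 424 CPM in the gate, against 304 and 1.67 CPM in the other barcodes, so the other barcodes of replicate 1 stood close to the gate of replicate 2. Ibsp had 1685 and 3061 CPM in the gate, against 38.0 and 28.1. Cytl1 had 3127 and 3169 CPM, against 40.7 and 4.46, and Slurp1 had 1403 and 858 CPM, against 139 and 27.3. Chad and Comp, which were named as markers of these cells but not used by the gate, had 14609 and 9320 CPM (Chad) and 13700 and 9557 CPM (Comp) in the gate. In the other barcodes Chad had 1515 and 411 CPM and Comp 2758 and 671. Chad and Comp had a UMI in all 100 and all 34 gated barcodes.

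**Figure D1:**
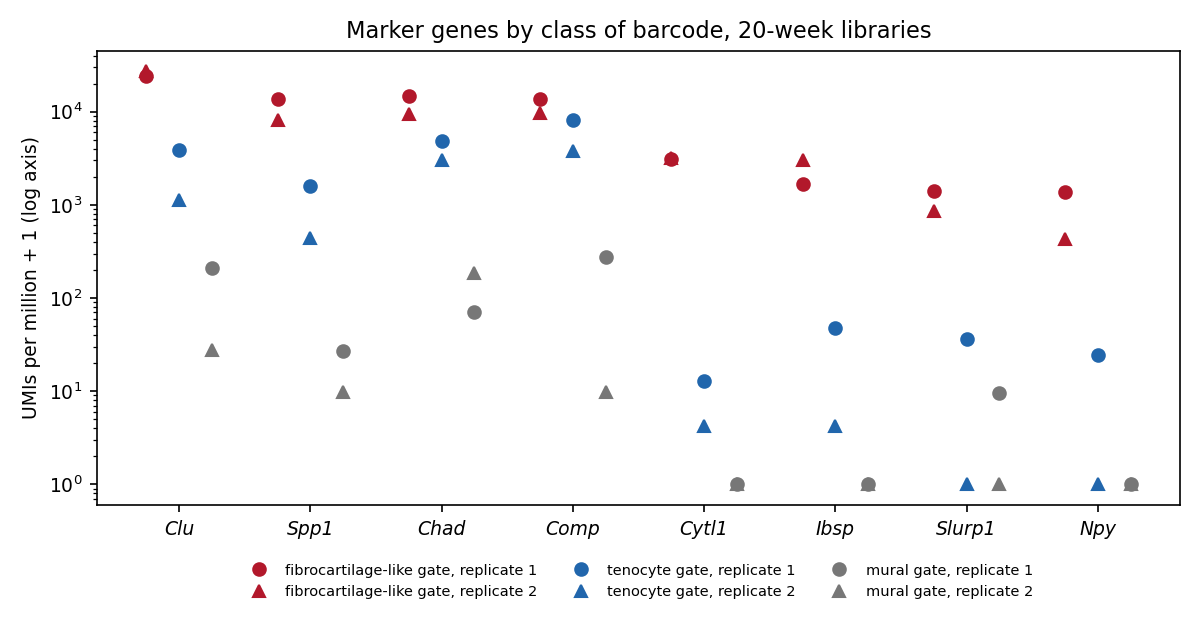
Level of the 6 gate genes and of Chad and Comp (CPM plus 1, log axis) in fibrocartilage-like gate, tenocyte-gate and mural-gate barcodes of the 2 libraries at 20 weeks, 1 point per library. Clu lies at 23895 and 27010 in the fibrocartilage-like gate, above the tenocyte gate at 3906 and 1120 and the mural gate at 208 and 26.5, and Npy, Ibsp and Cytl1 are at 0 in the mural gate.

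Mural cells (smooth muscle cells and pericytes of vessels) should lack these genes and served as a background. The mural gate took 54 and 44 barcodes with at least 3 mural markers, at median depths of 2009 and 2098 UMIs. Npy had a UMI in 61.0% and 44.1% of gated barcodes and in 0 of 54 and 0 of 44 mural barcodes, which allows shares of up to 5.56% and 6.82%. Ibsp had one in 56.0% and 73.5% of gated and in none of the mural barcodes, and Spp1 in 5.56% and 2.27% of mural barcodes. With every barcode thinned to 1000 UMIs, Npy was detected in 48.0% and 17.6% of gated barcodes and in none of the mural ones, Ibsp in 39.0% and 44.1%, and Cytl1 in 52.0% and 67.6%. Clu had a UMI in 25.9% and 2.27% of mural barcodes before thinning and in 14.8% and 0% after it, so a trace of Clu was present in barcodes of another type.

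Members differed among themselves. Per 1000 UMIs, a gated barcode held a median of 21 Clu UMIs in replicate 1 (quartiles 12.75 and 35.25) and 25 in replicate 2 (20.25 and 31.75). Spp1 had medians of 10 and 7, with single barcodes at up to 61 and 27. Ibsp had a median of 0 in both libraries and a highest value of 26 and 56, and Npy a median of 0 and highest values of 17 and 7. Clu and Spp1 were thus spread over nearly all members at this depth, while Ibsp and Npy were carried by some of them.

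Levels were also read on both sides of the gate's edge. Among barcodes with at least 3 Clu UMIs, 43, 52, 43, 50, 43 and 7 barcodes of replicate 1 held 0, 1, 2, 3, 4 and 5 of the 5 genes, and 55, 16, 15, 13, 17 and 4 of replicate 2. Just outside the gate, at 2 of the 5 genes, Clu stood at 12278 and 14814 CPM, and just inside, at 3 of the 5, at 21143 and 26455 CPM. Chad stood at 6995 and 7424 CPM just outside and at 14032 and 8960 CPM just inside. Tenomodulin (Tnmd), a membrane protein that marks mature tenocytes, ran the other way, at 416, 180, 55.0, 5.56, 6.66 and 0 CPM over 0 to 5 genes in replicate 1 and at 725, 220, 65.3, 0, 0 and 0 in replicate 2. Fibromodulin (Fmod), a collagen-binding proteoglycan, stood at 5003 and 2984 CPM with none of the genes and at 290 and 239 CPM with all 5. Summed levels of Clu, Chad, Fmod and Tnmd thus took middle values at 1 and 2 of the 5 genes, with 43 and 15 barcodes just outside the gate and 50 and 13 just inside. Each level is a sum over barcodes, on an axis made of the rule's own genes. Whether single barcodes lie between classes was not tested. The Clu threshold itself decided little, since 2 barcodes of replicate 1 and 0 of replicate 2 had 3 of the 5 genes and fewer than 3 Clu UMIs.

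**Figure D2:**
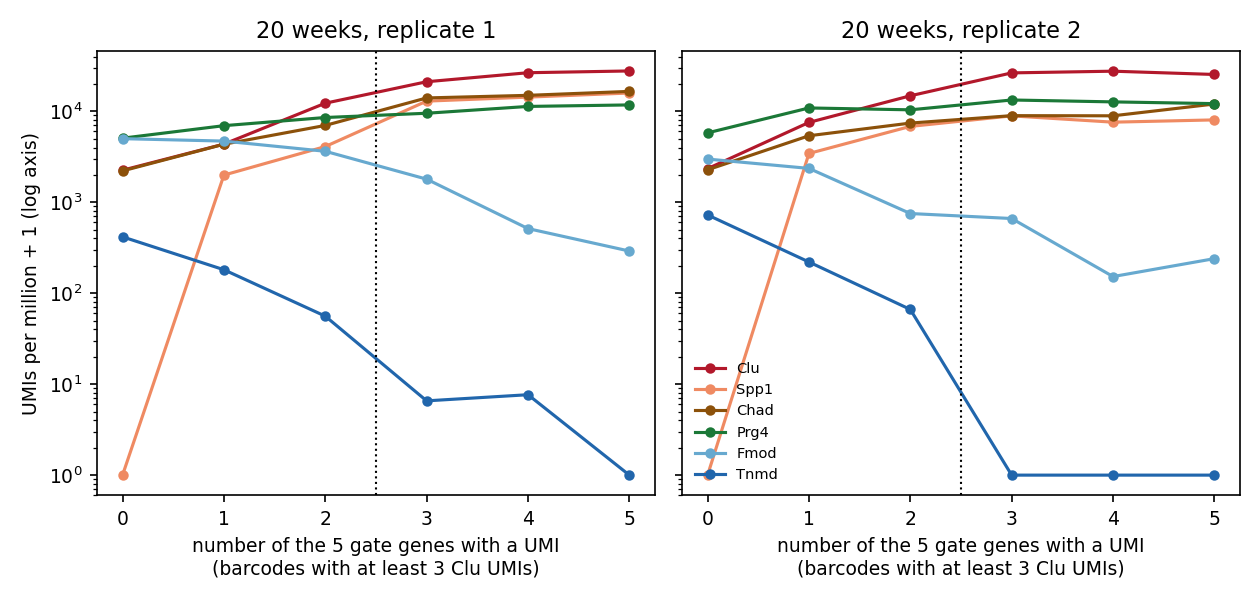
Level of Clu, Spp1, Chad, Prg4, Fmod and Tnmd (CPM plus 1, log axis) in barcodes with at least 3 Clu UMIs, by how many of the 5 gate genes had a UMI, for each library at 20 weeks. Right of the dotted line lie the gated barcodes, where Tnmd is at 5.56, 6.66 and 0 in replicate 1 and at 0 in replicate 2.

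Each of the 5 genes was also read in barcodes chosen without it, by at least 2 of the other 4 genes with Clu. Chosen so, 121 and 48 barcodes had Npy at 1174 and 295 CPM, against 318 and 1.70 CPM in the remaining barcodes. Ibsp stood at 1285 and 2312 CPM in its 136 and 45 barcodes, against 41.1 and 28.4. Cytl1 stood at 2410 and 2342 CPM, against 43.9 and 4.52. Slurp1 stood at 1169 and 735 CPM, against 147 and 27.5, and Spp1 at 12572 and 7434, against 635 and 186. Each of the 5 genes was higher in these barcodes than in the rest of both libraries, with Npy in replicate 1 the least apart. The genes of the rule were picked together with earlier results of these data known. The values therefore describe how the genes went together and are no support for the label. In replicate 1, 111 barcodes had a Npy UMI and 50 of them lay outside the gate. Those 50 carried Npy at 2973 CPM and Comp at 8812 CPM, with Clu at 4349, Cytl1 at 6.74 (1 UMI) and Ibsp at 0. In replicate 2, 15 of the 20 barcodes with a Npy UMI were in the gate.

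The label was checked against marker genes of the cells that such a preparation can hold. Of 11 chondrocyte markers, 6 and 3 had a UMI in the gate, at least 3 of them in 6 of 100 and 5 of 34 gated barcodes, and their summed level was 477 and 616 CPM, against 39.3 and 48.9 in the other barcodes. The defining cartilage collagen gene Col2a1 had 5 UMIs in 2 barcodes of replicate 1 and 0 in replicate 2, and Col9a1, Snorc, Cnmd, Matn3 and Matn1 were at 0 in both. Of 11 markers of osteoblasts and osteocytes, Bglap, Bglap2, Sp7, Dmp1, Mepe, Ifitm5 and Sost were at 0 in both libraries and no gated barcode had 3 of them. The chondrocyte markers that the gate held in both libraries were Acan, Sox9 and Hapln1. Of the label's own marker genes, all but Chad and Comp chose the barcodes, so their levels are no support for it. The label does not rest on Col2a1. At least 3 of the 8 tenocyte markers were detected in 78 of 100 and 31 of 34 gated barcodes. Tnmd had 2 and 0 UMIs, while the summed level was 17704 and 12849 CPM in the gate against 7403 and 3202 elsewhere, where Comp, a marker on both lists, had 13700 and 9557 CPM of the gate's sum.

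Markers of some other cell types moved with the gate, and their part in the results was not tested. The 6 markers of synovial lining cells, the fibroblasts that line a joint and make lubricin, summed to 11349 and 13268 CPM in the gate, against 3157 and 2003, nearly all of it lubricin (Prg4), with Col22a1 at 0. At least 3 of them were detected in 30 of 100 and 7 of 34 gated barcodes. By the test given next, 3 of 4 tested were higher and 0 lower (5.89% and 6.93% over all genes). Against tenocytes, 3 of 3 tested were higher (5.06% over all genes). Prg4 and Htra4 were among them in both tests. Htra4 kept its call in 10 of 10 and 8 of 8 alternatives, and Prg4 in 9 of 10 and 3 of 8. The 7 Schwann cell markers summed to 186 and 217 CPM in the gate, against 133 and 53.2, from S100b and Mbp, with Sox10 at 0 in both libraries. The 10 mural markers summed to 130 and 222 CPM in the gate against 3564 and 594, with Rgs5, Notch3, Mcam, Kcnj8 and Des at 0 and Cspg4, a chondroitin sulfate proteoglycan, higher by the test given next. All 8 endothelial and all 6 myogenic markers were at 0 in the gate, and blood-lineage markers summed to 2.82 and 0 CPM, B-lineage markers to 64.9 and 54.2, muscle fibre markers to 11.3 and 24.6 and adipocyte markers to 8.47 and 0. The 10 markers of fibroblast progenitors and sheath cells summed to 36168 and 30780 CPM in the gate, against 22594 and 23863, where decorin (Dcn) held nearly all of the sum, and at least 3 of them were detected in 43 and 22 gated barcodes. Of these 10 genes, Cd34, Ly6a, Pi16, Dpp4, Cd55, Cd248, Pdgfra and Lum were lower in the gate by the test given next.

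What else differed between the 134 gated and the 1490 other barcodes was read from UMIs summed per library and class with edgeR, the library as a block and Benjamini-Hochberg adjustment over all genes. Of 7881 genes outside the rule, 464 were higher in the gate (5.89%) and 546 lower (6.93%). The barcodes were chosen on genes that rise and fall together with many others, so these counts describe the gate and nothing is read from their size. With 4 sums there was 1 residual degree of freedom, and p-values rest on a spread shared across genes. DESeq2 called 175 higher (2.22%) and 149 lower (1.89%).

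Chil1, Acan, Tnfrsf11b, Frzb and Clec3a were among the 12 genes highest in the gate by the naming rule. Wnt antagonists other than Frzb went both ways and are given below. Chil1, a secreted chitinase-like lectin made by chondrocytes and synovial cells, had 192 and 340 CPM in the gate, against 2.76 and 7.07 CPM (log2 difference 5.89 ± 0.36 SE). Acan, the core protein of the large cartilage proteoglycan aggrecan, had 175 and 232 CPM, against 12.4 and 0.930 (5.73 ± 0.38). These CPM rested on 62 and 47 UMIs of Acan in 24 and 13 gated barcodes. Tnfrsf11b, which encodes osteoprotegerin, the decoy receptor that blocks osteoclast formation, had 271 and 311 CPM, against 13.8 and 5.58 (5.28 ± 0.33). Frzb, a secreted Wnt antagonist of joint cartilage, had 198 and 197 CPM, against 10.4 and 3.35 (5.27 ± 0.36). Clec3a, a lectin of cartilage, had 257 and 537 CPM, against 8.97 and 22.3 (4.86 ± 0.31). In both libraries the gate lay above the other barcodes for each of the 5 genes, which the naming rule required. None of the 5 would have passed the filter on low counts on the sums of the other barcodes. A lower call was thus not open to them. The others named among the 12 highest were Susd5, Ppp1r1b (an inhibitor of protein phosphatase 1), Sdk2 (a cell adhesion protein), D630045J12Rik, Htra4 (a secreted serine protease) and Gldc (an enzyme that breaks down glycine), with differences from 4.67 to 5.71. All 12 kept their call in each of the 9 or 10 alternatives run on them. A gene named after its values were seen, Ecrg4, which encodes the secreted protein augurin, had 18870 and 8655 CPM against 1320 and 280 (4.57 ± 0.28, adjusted p 1.4e-57).

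**Figure D3:**
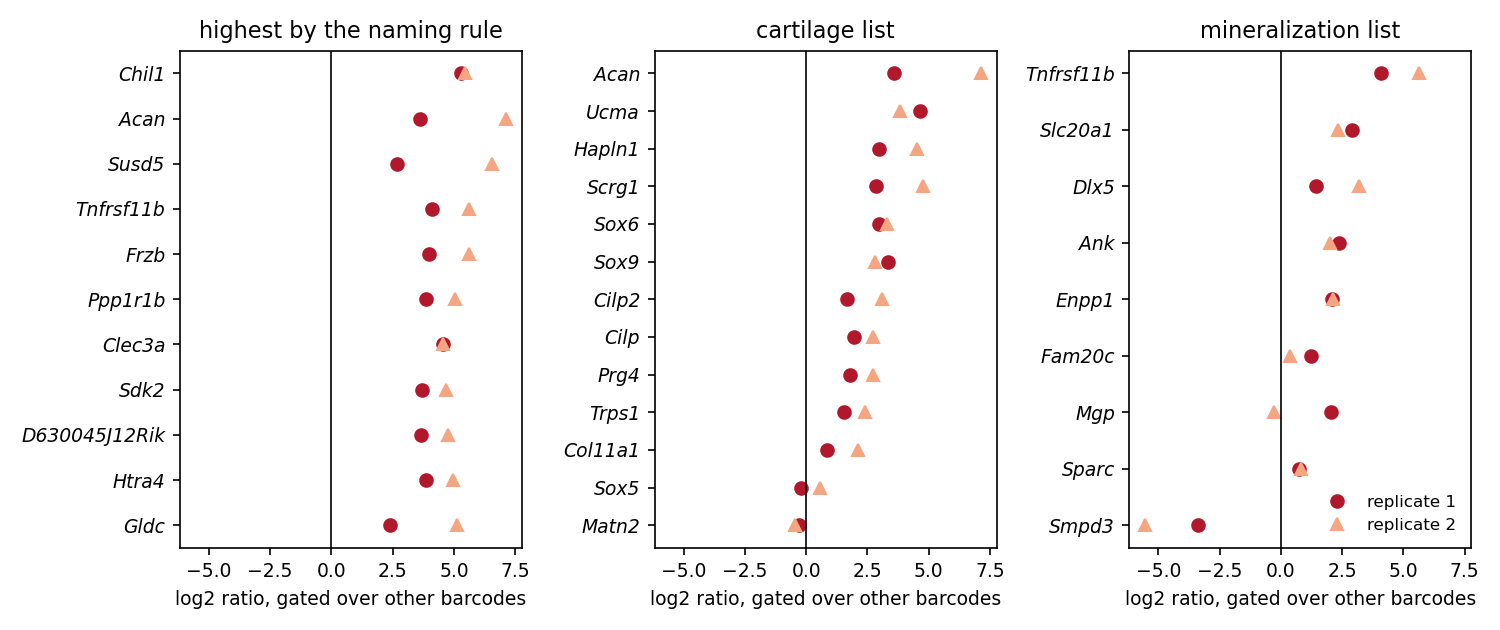
Log2 ratio of gated over other barcodes in each library at 20 weeks for 11 of the 12 genes highest by the naming rule (left), the tested genes of the cartilage list (middle) and those of the mineralization list (right). All 11 lie right of 0 in both libraries, as the naming rule required, while Mgp lies on opposite sides of 0.

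The 12 genes furthest below were all at 0 UMIs in both gated sums and passed the filter through the other barcodes, so a higher call was not open to them. Their difference is a bound with 3 counts over the gate in place of 0. Abca8b, a lipid transporter of stromal fibroblasts, was at least 45.4-fold lower, and its relative Abca9 at least 21.7-fold. Ace, the angiotensin-converting enzyme, was at least 33.4-fold lower and the transcription factor Ebf2 at least 16.8-fold. The mural genes Des and Rgs5 were at least 32.6-fold and 32.2-fold lower, and Postn, a matrix protein of periosteum and remodelling connective tissue, at least 11.6-fold. Basp1, Il6, Nsg1 and Gstm2 were at least 11.5-fold, 10.9-fold, 9.58-fold and 9.44-fold lower. Each of these 11 named genes lost its call with DESeq2, with adjusted p between 0.512 and 0.922.

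Cartilage and fibrocartilage genes were read as a list of 29, of which 26 had a UMI at 20 weeks and 13 passed the filter on low counts outside the rule. Over all genes outside the rule 5.89% were higher and 6.93% lower. These shares stand beside this and the later list counts against other barcodes. Of the 13, 11 were higher and none lower, with a median log2 difference of 2.53, against −0.05 over all genes tested. Acan, Ucma, Hapln1 and Sox6 would not have passed the filter on the sums of the other barcodes, so a lower call was not open to them. The list was also chosen with earlier results of these data known, so the count is a description. The transcription factors Sox9, which drives the cartilage programme, and Sox6, its partner, had 223 and 306 CPM (Sox9) and 48.0 and 69.0 CPM (Sox6) in the gate, against 20.0 and 42.8 CPM and 4.14 and 6.32 CPM (3.29 ± 0.30 and 3.65 ± 0.54). Sox5, the other partner, had 22.6 and 34.5 CPM, against 26.2 and 22.9, and did not pass. Hapln1, which links aggrecan to hyaluronan, had 59.3 and 78.9 CPM, against 5.52 and 2.79 (4.37 ± 0.53). Ucma, a secreted inhibitor of mineralization in cartilage, had 189 and 108 CPM, against 5.52 and 7.07 (4.59 ± 0.39). The large surface protein lubricin (Prg4) had 10435 and 12810 CPM, against 3029 and 1930 (2.43 ± 0.25). Cilp and Cilp2, matrix proteins of the middle zone of cartilage, had differences of 2.52 and 2.53, and Scrg1, Trps1 and Col11a1 were also higher. Of the 16 listed genes not counted, Chad and Comp were set aside as markers and the rest did not pass the filter.

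Of 24 listed genes of mineralization and its inhibitors, 18 had a UMI and 9 passed the filter, of which 7 were higher and 1 lower (median 2.32). Tnfrsf11b and Dlx5 would not have passed the filter on the sums of the other barcodes, so a lower call was not open to them. Beside Tnfrsf11b, the higher ones were the pyrophosphate suppliers Enpp1 (152 and 148 CPM, against 34.5 and 33.5) and Ank (169 and 153 CPM, against 31.1 and 38.1), whose product restrains mineral growth. The phosphate carrier Slc20a1 (223 and 88.7 CPM, against 27.6 and 17.3), the bone-lineage transcription factor Dlx5 (22.6 and 49.3 CPM, against 6.90 and 4.83) and Sparc were higher too. Enpp1, Ank and Slc20a1 kept their call in all 10 alternatives. Alpl, the phosphatase that destroys pyrophosphate, had 1 and 0 UMIs in the gate. Mgp, an inhibitor of soft tissue calcification, was called higher but stood at 4064 and 1089 CPM in the gate, against 993 and 1335, so it lay above in replicate 1 and below in replicate 2 (log2 ratio −0.29 without replicate 1), and it kept its call in 6 of 10 alternatives. Smpd3, a sphingomyelinase needed for mineralization of bone, was lower, at 11.3 and 0 CPM against 140 and 32.7.

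Of 15 tested tendon genes, Scx, Mkx, Angptl7 and Col12a1 were higher and Tnmd, Col14a1, Kera, Col3a1 and Col5a1 lower (median −0.36). Col12a1 kept its call in 3 of 10 alternatives, with a log2 difference as low as 0.031, and Scx lost its call with DESeq2 and with no library block.

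The hedgehog list had 7 of 13 genes past the filter, of which Smo and Cdon were higher and none lower. Cdon, a co-receptor, had 203 and 153 CPM, against 105 and 68.8 (1.22 ± 0.29), and Smo, the signal transducer, 42.3 and 83.8 CPM, against 30.4 and 32.2 (1.13 ± 0.40). Smo kept its call in 2 of 10 alternatives. Gli2, an effector of the pathway, had 19.8 and 19.7 CPM, against 2.07 and 8.92 (2.13 ± 0.78, adjusted p 0.0516), and the target and receptor Ptch1 had 8.47 and 19.7 CPM, against 6.90 and 18.8. The target Gli1 did not pass the filter on low counts.

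In the TGF-beta and BMP list, 28 of 38 genes passed the filter, 11 of them higher and 10 lower. The ligands Bmp2 (166 and 222 CPM, against 66.2 and 72.3), Tgfb1 (217 and 143 CPM, against 41.4 and 59.7) and Tgfb3 were higher, and Tgfb2 and Bmp4 lower. The receptor Bmpr1b was higher and Tgfbr2 lower. The BMP targets Id1 (262 and 370 CPM, against 91.1 and 55.8) and Id2, and the feedback inhibitors Bambi and Smad7, were higher, while Id3 had 847 and 1075 CPM, against 1105 and 1080, and did not pass. The matrix-bound Tgfbi and the secreted Fstl1 (95.9 and 73.9 CPM, against 894 and 1017) were lower. Inhba was called higher but had 135 and 49.3 CPM, against 42.8 and 67.9, on opposite sides in the 2 libraries. Tgfb3 and Inhba kept their call in 2 of 10 alternatives, Smad7 in 4 and Bmp4 in 5. Of 8 tested Wnt antagonists and targets, Frzb, Dkk3 and Wif1 were higher and Sfrp1, Sfrp2, Sfrp4 and Dkk2 lower. Wif1 stood at 404 and 19.7 CPM in the gate, against 39.3 and 12.8, so most of its difference came from replicate 1.

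Proteoglycans, matricellular genes and proteases were divided. Of 10 tested small leucine-rich proteoglycans, Dcn, Bgn, Prelp and Omd (osteomodulin, a keratan sulfate proteoglycan of mineralized tissue, 226 and 222 CPM against 24.2 and 31.6) were higher, and Aspn, Podn, Lum and Kera lower. Of 15 matricellular genes, 4 were higher and 7 lower, with Ccn2 (714 and 1592 CPM, against 259 and 471) and Thbs1 among the first and Sparcl1 among the second. Of 20 proteases and inhibitors, 6 were higher, among them the serpin Serpine2 (2164 and 3450 CPM, against 404 and 572) and the proteases Htra1 and Htra4, and 8 lower, among them the gelatinase Mmp2 (79.0 and 0 CPM, against 518 and 509) and Adamts1. Of 15 integrins and matrix receptors, Itga10, a chondrocyte collagen receptor, had 81.8 and 133 CPM, against 11.7 and 11.2 (3.42 ± 0.40). Itga1 and the syndecan Sdc4 were also higher, and Ddr2 and Itgb3 lower. Of 12 genes of complement, lipid carriers and chaperones, 9 were lower, among them Apod (67.7 and 24.6 CPM, against 882 and 1007), C3 and C1ra.

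Among genes of oxygen and oxidant handling, 8 of 13 tested hypoxia and glycolysis genes were higher and 2 lower (median 1.05). Egln3, the oxygen-sensing prolyl hydroxylase, had 175 and 375 CPM, against 16.6 and 15.2 (4.30 ± 0.32), and the mitochondrial protein gene Higd1a 1022 and 557 CPM, against 166 and 113. Slc2a1, Eno1, Bnip3, P4ha1, P4ha2 and Ndrg1 were higher, while Vegfa (14.1 and 0 CPM, against 41.4 and 73.8) and Adm were lower. P4ha1 kept its call in 3 of 10 alternatives, and P4ha2 and Ndrg1 in 4. Of 23 tested antioxidant genes, the secreted Sod3 (841 and 818 CPM, against 335 and 168) and Gpx3 (3383 and 3046 CPM, against 1969 and 533), with Gpx1 and Prdx5, were higher and Gpx8 was lower, with its call kept in 2 of 10 alternatives. The metallothioneins Mt1 (2777 and 3475 CPM, against 5100 and 3942) and Mt2 did not pass. Of 3 tested neuropeptide genes, the parathyroid hormone receptor Pth1r was higher and its ligand Pthlh lower, at 104 and 19.7 CPM against 25.5 and 11.2 (Pth1r) and at 2.82 and 0 CPM against 15.2 and 51.3 (Pthlh). Receptors for neuropeptide Y did not pass the filter. Of 24 immediate early and heat shock genes, Dusp1 and Ier3 were higher and Jun and Hspa1b lower, the calls of Dusp1 and Hspa1b being kept in 4 of 10 alternatives. Their counts lie near the shares over all genes (5.89% higher and 6.93% lower), so nothing is read from them. Of 4 tested cell cycle genes none passed edgeR at the adjusted threshold.

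Tenocytes of the same libraries were chosen as the class to set beside the gate, and how near they lie to it was not measured. They were taken as barcodes outside the gate with a Tnmd UMI and at least 3 Fmod UMIs, 32 in replicate 1 and 73 in replicate 2. Median UMIs were 2800.5 and 3959 there. Of 3478 genes tested, 176 were higher in the fibrocartilage-like gate (5.06%) and 143 lower (4.11%), and DESeq2 called 39 (1.12%) and 36 (1.04%). Both classes were cut by rules on genes that vary with others, so nothing is read from these sizes. The edgeR shares of 5.06% and 4.11% stand beside the list counts against tenocytes below. The counts moved with several choices given in the closing section, and the sum of 32 barcodes holds 84996 UMIs.

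Of 16 listed tendon genes, 14 were tested here, and 8 of them were lower in the fibrocartilage-like gate and none higher, against a class itself chosen on the tendon genes Tnmd and Fmod (median log2 difference −1.65, against 0.00 over all genes, also with Tnc at its bound). Thbs4, a thrombospondin of tendon and muscle matrix, had 330 and 439 CPM, against 5377 and 6955 CPM in tenocytes (−3.89 ± 0.24, adjusted p 1.1e-08). Kera, a proteoglycan that spaces collagen fibrils, had 2.82 and 4.93 CPM, against 529 and 195 (−6.45 ± 0.58). Tnc, a matrix protein of stretched tissue, was at 0 in both gated sums, against 58.8 and 179 CPM, at least 28.4-fold lower, a call lost with DESeq2. Kera and Tnc would not have passed the filter on low counts on the gated sums, so a higher call was not open to them. Col1a1, the main collagen chain of tendon, had 948 and 1222 CPM, against 3906 and 4074 (−1.78 ± 0.23), with Col1a2, Col3a1, Col12a1 and Ptx4 lower as well. Col1a1 and Col1a2 lost their call without the library block and with the wider gate, Col3a1 without the block, and Ptx4 with DESeq2 and with the gate at 4 of 5 genes. The tendon transcription factors did not pass, which does not show that their levels were alike. Scx had 1538 and 1262 CPM, against 4306 and 1241, lower in replicate 1 and level in replicate 2 (−0.63 ± 0.29, adjusted p 0.252). Mkx had 31.0 and 54.2 CPM, against 70.6 and 94.4 (adjusted p 0.407). Angptl7, a secreted protein abundant in tendon cells, had 2703 and 4889 CPM, against 1765 and 4601 (adjusted p 0.290).

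**Figure D4:**
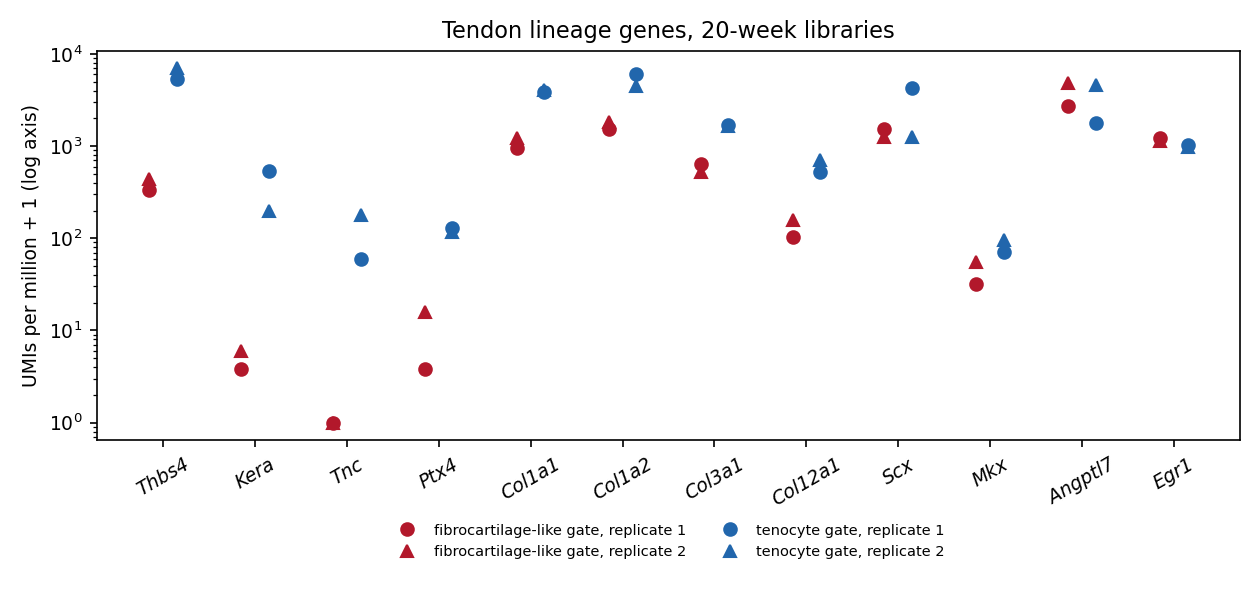
Level of 12 tendon lineage genes (CPM plus 1, log axis) in fibrocartilage-like gate and tenocyte-gate barcodes, 1 point per library at 20 weeks. Thbs4 lies at 330 and 439 in the fibrocartilage-like gate, below 5377 and 6955 in the tenocyte gate, while Scx at 1538 and 1262 overlaps 4306 and 1241.

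Against tenocytes, 7 of 12 tested cartilage genes were higher and 2 lower. Acan and Hapln1, and Tnfrsf11b and Frzb given below, would not have passed the filter on the tenocyte sums, so a lower call was not open to them. Acan had 175 and 232 CPM, against 0 and 3.26 (6.25 ± 0.69), where tenocytes held 1 UMI. Sox9 had 223 and 306 CPM, against 47.1 and 48.8 (2.61 ± 0.38), and Hapln1, Trps1, Scrg1, Cilp and Prg4 were higher. Among these, Scrg1 kept its call in 1 of 7 alternatives, Trps1 and Cilp in 2 of 8, Prg4 in 3 of 8 and Hapln1 in 5 of 7, while Acan and Sox9 kept theirs in 7 of 7. The chains of collagen XI, which set fibril width, were lower in the gate, with Col11a1 at 70.5 and 148 CPM, against 212 and 394 (−1.37 ± 0.32), and Col11a2 at 2.82 and 0 CPM, against 70.6 and 153. Col11a1 kept this call in 3 of 8 alternatives, and against all other barcodes it lay the other way. Of 6 tested mineralization genes, Tnfrsf11b (271 and 311 CPM, against 11.8 and 6.51, 5.27 ± 0.53) and Slc20a1 were higher, while Enpp1 (152 and 148 CPM, against 94.1 and 94.4) and Ank (169 and 153 CPM, against 58.8 and 91.2) did not pass. Frzb (198 and 197 CPM, against 23.5 and 0), Bmp2, Tgfb1, Id1 and Cdon were higher, and Sfrp2, Dkk2, Chrdl1, Fstl1 and Tgfbi lower. Of these, Bmp2, Cdon and Tgfbi kept their call in 2 of 7 alternatives, Fstl1 in 3 of 8, Dkk2 in 3 of 6, Tgfb1 in 4 of 7 and Id1 in 5 of 8. Ecrg4 had 18870 and 8655 CPM, against 3506 and 1263 (2.72 ± 0.21).

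The genes furthest apart from tenocytes by the naming rule were Fxyd3, a regulator of the sodium pump, Gm41724, Sh2d4a, Susd5 and Stk32b, each at 0 in tenocytes and at least 20.4-fold, 15.0-fold, 10.1-fold, 9.15-fold and 8.44-fold higher in the gate, with Egln3 at 175 and 375 CPM against 11.8 and 0. These genes would not have passed the filter on the tenocyte sums, so a lower call was not open to them. Of these, Fxyd3, Gm41724, Sh2d4a, Susd5 and Egln3 lost their call with DESeq2, and Stk32b with the gate at 4 of 5 genes. The 6 furthest below were Tnc, Cthrc1 (a collagen triple helix repeat protein, at least 14.7-fold lower), Kera, Mfap4 (a microfibril protein, 5.64 and 0 CPM, against 176 and 583), Sfrp2 and Col11a2. Cthrc1, Mfap4 and Col11a2, like Kera and Tnc, would not have passed the filter on the gated sums, so a higher call was not open to them. Col11a2 lost its call with the gate at 4 of 5 genes. Serpine2 had 2164 and 3450 CPM, against 271 and 228 (3.62 ± 0.29), and Serpinf1, an antiangiogenic serpin, 641 and 409 CPM, against 5165 and 4249 (−3.07 ± 0.24). Of 14 tested matricellular genes 7 were lower and none higher, of 16 proteases and inhibitors 6 were higher and 4 lower, and of 11 hypoxia and glycolysis genes 4 were higher and 1 lower. S100b, a calcium-binding protein of chondrocytes and glia, had 138 and 182 CPM, against 0 and 6.51 (5.06 ± 0.65). A lower call was not open to it either.

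In the library of mice aged 2 weeks the same gate took 1 of 4964 barcodes (0.0201%, interval 0.00051 to 0.112%). That barcode had 39453 UMIs, the most in its library, and 54 barcodes had 2 or more of the 5 genes with Clu. A chondrocyte gate of at least 3 of Col2a1, Acan, Col9a1, Snorc, Cnmd and Hapln1 took 500 other barcodes at 2 weeks, at a median of 7003 UMIs, and 0 barcodes of either library at 20 weeks. An osteogenic gate took 3 at 2 weeks and 0 at 20 weeks. Set side by side, the 20-week fibrocartilage-like gate and the 2-week chondrocyte gate shared Acan (175 and 232 CPM, against 314), Sox9 (223 and 306 CPM, against 185) and Sox6 (48.0 and 69.0 CPM, against 64.4) at a like level. Col2a1 had 14.1 and 0 CPM, against 3673, and Snorc and Cnmd, a membrane proteoglycan and chondromodulin, 0 and 0 CPM, against 714 and 373. Hapln1 (59.3 and 78.9 CPM, against 467), Ucma (189 and 108, against 829) and Col11a1 (70.5 and 148, against 2274) were lower at 20 weeks, while Chad, Comp and Prg4 were higher. Acan, Col2a1, Snorc, Cnmd and Hapln1 chose the 2-week class, so their levels there are set in part by its rule. Clu had 23895 and 27010 CPM, against 433, Cilp 1764 and 3302, against 55.4, and Spp1 13731 and 8034, against 911. Npy and Slurp1 had 0 UMIs in the 2-week chondrocyte gate. Tnmd had 5.64 and 0 CPM, against 2877. The 2-week side is 1 library with no replicate, and age and class cannot be told apart, so no test was made.

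**Figure D5:**
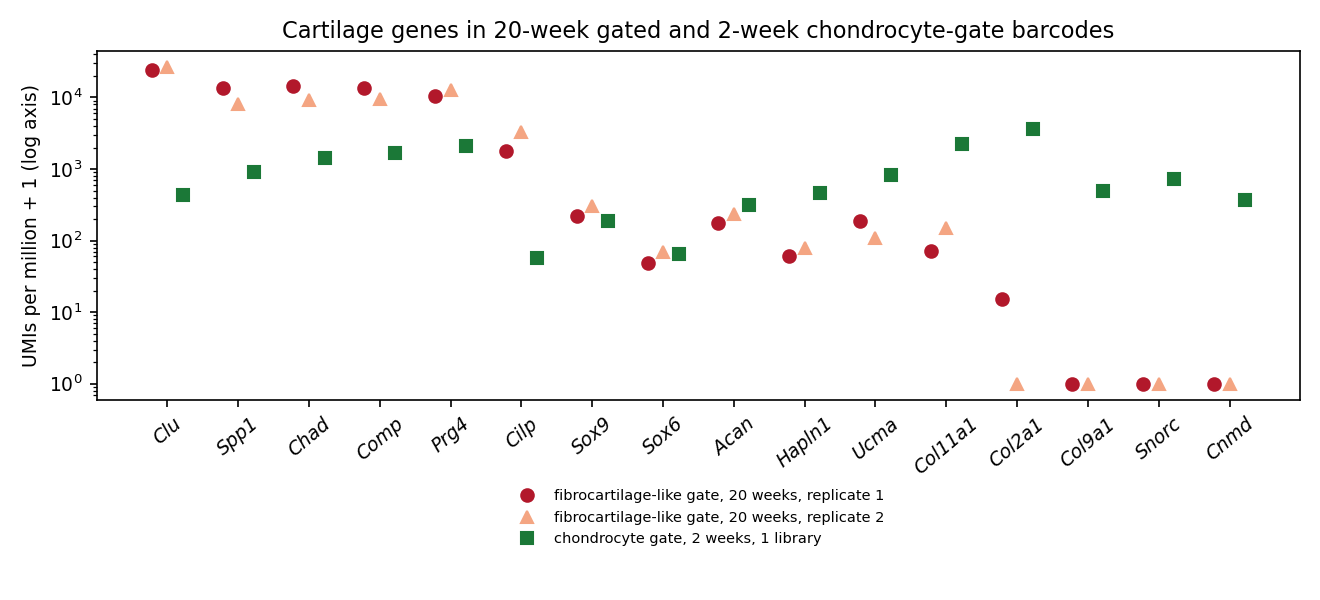
Level of cartilage genes (CPM plus 1, log axis) in fibrocartilage-like gate barcodes of each library at 20 weeks and in chondrocyte-gate barcodes of the library at 2 weeks. Sox9, Sox6 and Acan lie at 223 and 306, 48.0 and 69.0, and 175 and 232 beside 185, 64.4 and 314, while Col2a1 lies at 14.1 and 0 beside 3673. Hapln1, Ucma and Col11a1 also lie lower at 20 weeks, and Chad, Comp and Prg4 higher.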

How the data were processed

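Single-cell libraries (10x Chromium 3′ v3.1 chemistry) were made from patellar tendon of mice aged 2 and 20 weeks. The authors made the UMI counts with Cell Ranger 6.1.2 on mm10, per the submitters' processing notes, and the deposited matrices hold unnormalized counts per gene and barcode. The annotation release is not given in the sources used here. Of 32285 Ensembl identifiers, 32235 (99.8%) were found in GENCODE vM21, and symbols are the files' own. UMIs were summed per library and class and tested with edgeR 4.0.16 (R 4.3.3): TMM, filterByExpr, quasi-likelihood test, library as a block since each library gives both sums, Benjamini-Hochberg threshold 0.05. Only the 20-week libraries entered tests. The filter on low counts can be passed through the sums of 1 class alone. A gene rare in the other class could then be called in 1 direction only. The 6 gate genes, Chad and Comp, and Tnmd and Fmod against tenocytes, were fitted but left out of calls and counts. DESeq2 1.42.0 was the alternative tool. The library block takes level differences between the libraries out of the spread. Against tenocytes the p-values rest in part on how far a gene's difference between classes varied between the 2 libraries, and mostly on a spread shared across genes. Against other barcodes a typical gene's own variation had no weight, and only the spread shared across genes counted. The labels do not say whether the 2 libraries came from separate animals, so this spread may be technical. Named genes were, among calls with 1 direction in both libraries and at least 20 CPM in both sums of the higher class, the 12 highest and 12 lowest against other barcodes and the 6 and 6 against tenocytes, with list members. The members, markers and lists were chosen with earlier results of these data known. A fold against 0 uses 3 counts over the class. Doublets were scored by an exact rewrite of the scrublet score with 0.8% expected per 1000 barcodes and were kept in the main result. The fitting was tested on simulated data. Positions are 1-based, on mm10. Whether the deposited barcodes are all the cells of a library is not stated, so shares hold for these barcodes. A few genes that the naming rule or the lists take in are not reported here.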

Additional observations from a re-analysis of the deposited data

Results flagged for a closer look

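Transgene UMIs appeared in cells of mice labelled WT, outside the main measurement. The feature list holds EGFP, tdTomato and tdTomato-WPRE. The gated barcodes held 31 and 18 EGFP UMIs in replicates 1 and 2, or 87.5 and 88.7 CPM, against 38.0 and 7.44 CPM in the other barcodes, and 20 of 100 and 10 of 34 gated barcodes had one. In the mural gate EGFP had 0 UMIs in both libraries. In the tenocyte gate it stood at 118 and 71.6 CPM, with a UMI in 21.9% of barcodes in each library. EGFP was thus not particular to the gated barcodes. The gated barcodes held 115 and 97 tdTomato UMIs, or 325 and 478 CPM, against 535 and 244 CPM, so the gate lay below the other barcodes in replicate 1 and above them in replicate 2. No UMI of tdTomato-WPRE was counted in either 20-week library. The labels give no transgene, and the source of these UMIs was not tested.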

How the results depend on the processing

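Counts of calls moved with the tool and the sums. Against other barcodes (464 higher and 546 lower), DESeq2 gave 175 and 149, thinning to 1000 UMIs 133 and 155, and the stricter cell filter 314 lower. Against tenocytes (176 and 143), DESeq2 gave 39 and 36, RLE size factors 101 and 90, thinning 68 and 63, the gate at 4 of 5 genes 39 and 42, and at 2 of 5 genes 94 and 80. Since each library gives both sums, the pairing comes from the libraries; with no replicate block the calls were 149 and 200 against other barcodes and 37 and 46 against tenocytes. The share of barcodes in the gate was 8.21% and 2.07% at 4 of 5 genes, 23.5% and 4.83% at 2 of 5, 10.5% and 2.07% when gated after thinning, and in replicate 1 21.3% under the stricter filter. At p under 0.05 unadjusted, 1669 and 655 genes passed. Of 247 named calls, 130 were lost with no replicate block, 31 with RLE, 124 of 243 with DESeq2, 57 of 190 with thinning, 61 of 240 with the gate at 4 of 5 genes and 62 of 246 at 2 of 5. With 1 library alone the direction turned for Mgp (−0.29 to 2.03), Smoc2 (−6.552 to 0.008), Inhba (−0.456 to 1.613) and Tagln (−7.021 to 0.816), and for Tagln also with fibroblast-gated others (1.32). The uncalled Scx against tenocytes ran from −1.48 to 0.024. The stricter filter against tenocytes left 18 barcodes in replicate 1, under the 20 required for a test; its fit called 144 and 116 genes and is not used further. Causes were not tested. Few UMIs limit the rarer genes: Acan rested on 62 and 47.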

Other observations

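The 20-week libraries agreed on most abundant genes of the gate. Of 1413 genes at 100 CPM or more in either gated sum, 1214 (85.9%) were within 2-fold of each other with 10 CPM added, 76 were more than 2-fold higher in replicate 1 and 123 in replicate 2. Genes that differed between the libraries within the gate included the matrix inhibitor Mgp (4064 and 1089 CPM), the Wnt antagonist Wif1 (404 and 19.7 CPM) and the matricellular Smoc2 (172 and 4.93 CPM). These are 2 libraries of 1 group, and no test was made.

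Within the gate, barcodes with a Npy UMI were set beside those without one, 61 and 39 in replicate 1 and 15 and 19 in replicate 2. Chil1 had 308 and 607 CPM in barcodes with Npy, against 27.3 and 110 CPM in barcodes without it, on 64 and 57 UMIs against 4 and 12. Ecrg4 had 12170 and 8570 CPM, against 28387 and 8729. Cytl1 had 1630 and 2023 CPM, against 5253 and 4158. Barcodes with Cytl1 held Chil1 at 291 and 409 CPM, and those without it at 8.06 and 0 CPM, on 1 and 0 UMIs. Ibsp went opposite ways in the 2 libraries, at 1265 and 5344 CPM in barcodes with Npy, against 2281 and 1092 CPM without it. Because a member needs 3 of the 5 gate genes, the absence of one favours the presence of the others, so the splits on Cytl1 and Ibsp are set in part by the rule, while Chil1 and Ecrg4 are outside it. Cells of 1 library are not replicates, and no test was made.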
